A study of Mus musculus with 3 samples.

Results

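The genes described here were 10 antioxidant and detoxification genes linked to the transcription factor Nrf2, out of 22658 gene models in the deposited tables. They were Nfe2l2, which encodes Nrf2, and Nqo1, Hmox1, Gclc, Gclm, Srxn1, Akr1b8, Akr1b3, Gsta4 and Gstm1, each found by its name and each present once. The genes were listed with earlier results of these libraries known, Akr1b8 for its difference at 48 h, so the values below describe them and carry no test. They were measured by Bru-seq, which labels RNA with bromouridine during a short window, captures it with an antibody and sequences it, and therefore reads out RNA being made and not the stored pool. The cells were NB490, a mouse pancreatic cancer line selected with puromycin for stable expression of a doxycycline-inducible short hairpin RNA against PDX1, a transcription factor of the pancreas. All 3 libraries came from these shRNA-bearing cells and were labelled with 2 mM bromouridine for 30 min. One was uninduced (0 h of doxycycline), one had 48 h of doxycycline, and one came from cells grown out over more than 3 weeks of doxycycline. Each condition was 1 library, so no difference below has a replicate check, and a doxycycline control lacking the shRNA was not analysed here. In such bulk libraries fewer cells transcribing a gene and less RNA made per cell cannot be told apart.

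Nrf2 is a basic leucine zipper factor that is held at a low level by Keap1, which delivers it to a Cul3 ubiquitin ligase. When reactive compounds modify Keap1, Nrf2 accumulates, pairs with a small Maf protein and binds antioxidant response elements in genes for glutathione synthesis, quinone reduction, haem breakdown, peroxide repair and aldehyde removal. Because Nrf2 is controlled largely through the stability of the protein, transcription of Nfe2l2 itself does not measure Nrf2 activity. In pancreatic cancer cells this pathway is known for keeping oxidant levels low.

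The read total behind the deposited values was 51006774 for uninduced cells, 48418864 for 48 h and 41632296 for grown-out cells, and gene models held 78.1% to 79.4% of it. Levels are given in RPKM, reads per kilobase relative to the size of the library, over gene models with introns. For 1894 of the 22658 models, Akr1b3 and Sod2 among them, the deposited length was below the span. Percentiles among measured genes include such models. Their 95% intervals are exact Poisson intervals. Folds are plain ratios of RPKM with exact conditional binomial 95% intervals. These intervals cover counting error only, not variation between cultures, and repeat reads of 1 molecule could make them too narrow. A gene was called measured at a mean of at least 0.5 RPKM over the 3 libraries and a model length of at least 300 bp, which 7915 models met. Of epithelial markers 5 of 8 were measured, with summed levels of 54.9, 47.8 and 52.1 RPKM from uninduced through 48 h to grown-out cells, while Epcam was at most 0.0984 RPKM and Cldn7 was at 0. Of the markers of other cell types, 0 of 10 acinar, 0 of 8 endocrine and 0 of 7 endothelial genes were measured. Immune genes had summed levels of 2.42, 1.37 and 1.38 RPKM, with 2 of 9 measured (Cd68 and Cd14) and Csf1r and Lyz2 at 0 in every library. Fibroblast genes summed to 1.36, 1.27 and 1.58 RPKM, with only Gsn of 8 measured and Lum and Pdgfrb at 0. The immune sum was lower in both doxycycline libraries, which was mainly Cd14, with log2 ratios of -1.55 and -1.50 against uninduced cells. Those of Cd68 were -0.11 and -0.14. What part the immune sum had in the values below was not tested. Pdx1 nascent RNA was at 1.59, 1.05 and 1.41 RPKM in the same order, on 406, 256 and 296 reads. Bru-seq reads out RNA being made, so whether the shRNA lowered stored Pdx1 RNA or its protein in either doxycycline library was not tested.

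Sequence upstream of the start sites was examined because the genes are grouped by their link to Nrf2. RefSeq windows of 250 bases before to 50 after the start (build GRCm38.p6) were at hand for 6 of the 10 genes, Nfe2l2, Nqo1, Gclm, Srxn1, Akr1b8 and Gstm1, the last with 2 windows. They were searched on both strands for the antioxidant response element core TGACNNNGC and for the AP-1 site TGACTCA. A further form of the Nrf2 and Maf site, TGAGNNNGC, was added after the first matches were seen. The motifs can overlap, since TGACTCAGC holds both the core and the AP-1 letters and TGAGTCAGC holds the AP-1 letters on the other strand. The core was found in the windows of Nfe2l2, Gclm and Srxn1, and in 12.4% of all 32851 windows. TGACTCA was found in the Srxn1 window only, against 5.20% of all windows, and TGAGNNNGC likewise, against 17.6%. The stretches before the start that hold the matches are shown with the matched letters in capitals, and the Akr1b8 stretch, which had no match, is shown because that gene differed most. They lie at chr2:75704880-75704913 (minus strand) for Nfe2l2, chr3:122245408-122245446 (plus) for Gclm, chr2:152105351-152105502 (plus) for Srxn1 and chr6:34353896-34354145 (plus) for Akr1b8.
Nfe2l2: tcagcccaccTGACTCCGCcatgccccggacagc
Gclm: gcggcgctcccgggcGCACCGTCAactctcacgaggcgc
Srxn1: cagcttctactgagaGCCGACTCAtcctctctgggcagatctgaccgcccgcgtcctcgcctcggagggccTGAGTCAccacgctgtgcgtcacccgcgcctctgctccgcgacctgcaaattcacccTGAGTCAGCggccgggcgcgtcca
Akr1b8: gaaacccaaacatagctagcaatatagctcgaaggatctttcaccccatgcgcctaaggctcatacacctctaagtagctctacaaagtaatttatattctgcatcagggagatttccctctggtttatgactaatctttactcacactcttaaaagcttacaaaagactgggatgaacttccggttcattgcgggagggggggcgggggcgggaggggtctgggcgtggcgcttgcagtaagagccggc

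Counted from the start site, with the base before it as -1, the Nfe2l2 match began at -240 and the Gclm match at -134, the latter on the opposite strand. Srxn1 held TGACTCA on the opposite strand at -102 and at -45, the second of which is also the TGAGTCAGC form on the gene's own strand. It held a further TGAGNNNGC form at -158 and a core match after the start, at 29. Nqo1, Akr1b8 and both Gstm1 windows held none of the 3 motifs. A match is a run of letters and not a bound site, and its absence says only that these letters are not in the window.

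Nascent RNA of Nfe2l2, the gene for Nrf2 itself (chromosome 2, 75513576 to 75542698, minus strand, in the coordinates of the deposited tables, whose build is not given in the sources used here), was lower in both doxycycline libraries. Its level was 10.5 RPKM in uninduced cells (10.3 to 10.7), 7.93 at 48 h (7.79 to 8.08) and 7.93 after growing out (7.77 to 8.09). The uninduced library was the high one, and the intervals of the doxycycline libraries overlapped. Against uninduced cells the 48 h value was 1.32-fold lower (1.29 to 1.36), and the value after growing out was 1.33-fold lower (1.29 to 1.36). Between the doxycycline libraries the interval of the ratio included no change (0.974 to 1.03). Nfe2l2 was the most transcribed of the 9 genes whose model length equals their span, above 96.1% of measured genes in the uninduced library and 93.9% in the grown-out one.

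**Figure D1:**
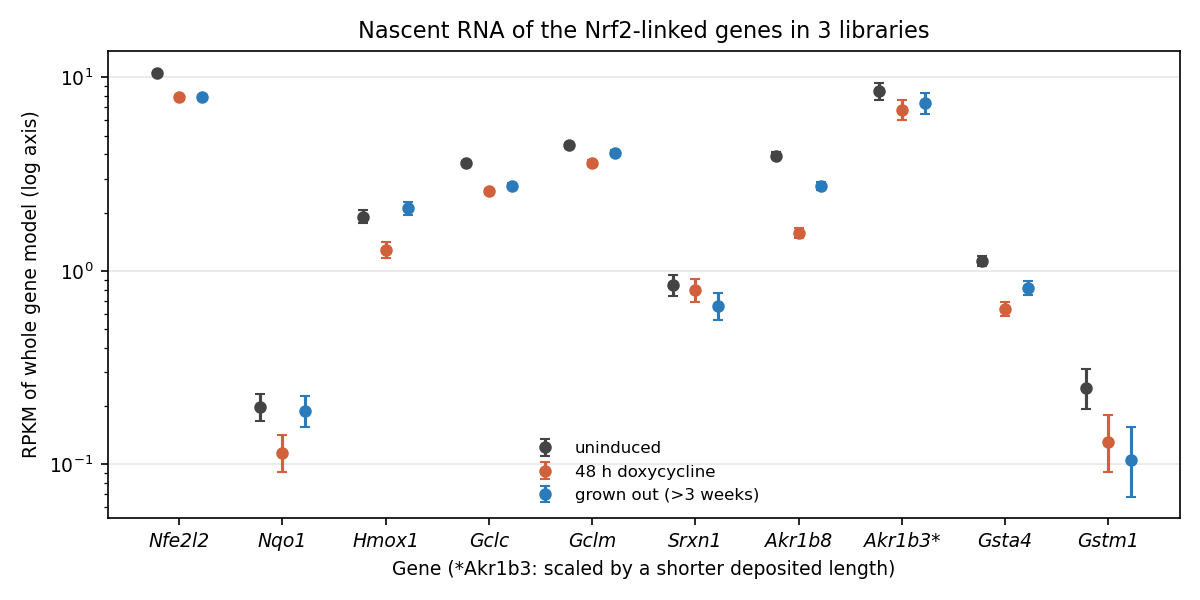
Level of each of the 10 genes in RPKM (log axis) with 1 library per condition; bars are 95% Poisson intervals for counting error. Akr1b8 went from 3.94 to 1.57 and 2.74 RPKM, whereas Hmox1 and Nqo1 were low only in the 48 h library.

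Glutamate-cysteine ligase, which catalyses the first and limiting step of glutathione synthesis, has a catalytic subunit from Gclc and a modifier subunit from Gclm. Gclc (chromosome 9, 77602342 to 77642296, plus strand) had 3.61 RPKM in uninduced cells (3.52 to 3.69), 2.58 at 48 h (2.51 to 2.65) and 2.76 after growing out (2.68 to 2.84). It was 1.397-fold lower at 48 h (1.35 to 1.45) and 1.31-fold lower in grown-out cells (1.26 to 1.36). Gclm (chromosome 3, 121948510 to 121969566, plus strand) had 4.46 RPKM (4.34 to 4.59), 3.61 (3.49 to 3.73) and 4.06 (3.93 to 4.20) in the same order. The intervals of the 3 libraries did not overlap for Gclm, with the 48 h library lowest and the grown-out one between. Gclm was 1.24-fold lower at 48 h (1.18 to 1.29) and 1.10-fold lower in grown-out cells (1.05 to 1.15).

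The subunit genes therefore differed in size, which a ratio within each library shows without any scaling between libraries. Gclm had 0.652 reads per Gclc read in uninduced cells, 0.737 at 48 h and 0.777 in grown-out cells. That ratio was 1.13-fold higher at 48 h (conditional exact interval 1.07 to 1.20) and 1.19-fold higher in grown-out cells (1.13 to 1.26) than in uninduced cells. From 48 h to grown-out cells it differed 1.05-fold, its interval including no change (0.991 to 1.12).

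Nqo1 encodes a quinone reductase and Hmox1 the inducible haem oxygenase, which splits haem. Hmox1 (chromosome 8, 77617517 to 77624492, plus strand) had 1.91 RPKM in uninduced cells (1.77 to 2.06), 1.28 at 48 h (1.16 to 1.41) and 2.10 after growing out (1.94 to 2.28). The 48 h library was low, and the intervals of the other two overlapped. Hmox1 was 1.49-fold lower at 48 h (1.32 to 1.68). In grown-out cells it was 1.10-fold higher than in uninduced cells, its interval including no change (0.987 to 1.23); under TMM scaling and under DESeq2 size factors that interval excluded it. Against the 48 h library the grown-out value was 1.64-fold higher (1.45 to 1.86), above 98.0% of measured genes in that comparison.

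Nqo1 (chromosome 8, 109912125 to 109927105, minus strand) was scarcely transcribed and did not reach the expression minimum. It had 0.196 RPKM in uninduced cells (0.166 to 0.230), 0.114 at 48 h (0.0911 to 0.142) and 0.188 after growing out (0.155 to 0.225), on 150, 83 and 117 reads. As with Hmox1, the 48 h library was the low one and the intervals of the other two overlapped. Nqo1 was 1.72-fold lower at 48 h (1.30 to 2.27), and 1.05-fold lower in grown-out cells, its interval including no change (0.816 to 1.34). Although Nqo1 is a textbook Nrf2 target, its level in uninduced cells was 0.0187 of that of Nfe2l2 per length.

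Srxn1 encodes sulfiredoxin, which restores over-oxidised peroxiredoxins. It (chromosome 2, 151931466 to 151937089, plus strand) had 0.841 RPKM in uninduced cells (0.737 to 0.953), 0.791 at 48 h (0.691 to 0.906) and 0.657 after growing out (0.558 to 0.770). The intervals of neighbouring libraries in this order overlapped, and the grown-out library was lowest. Srxn1 was the one measured gene of the group without a difference beyond counting error at 48 h, at 1.06-fold lower (0.878 to 1.28). In grown-out cells it was 1.28-fold lower than in uninduced cells (1.04 to 1.57).

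Akr1b8 and Akr1b3 encode aldo-keto reductases, which reduce aldehydes with NADPH; Akr1b3 is the mouse aldose reductase. Akr1b8 (chromosome 6, 34304164 to 34318454, plus strand) had 3.94 RPKM in uninduced cells (3.80 to 4.09), 1.57 at 48 h (1.48 to 1.67) and 2.74 after growing out (2.61 to 2.88). The 3 intervals did not overlap: the 48 h library was low, and the grown-out one lay between it and the uninduced one. Akr1b8 was 2.51-fold lower at 48 h (2.34 to 2.69), and its log2 ratio of -1.30 lay above that of only 0.265% of measured genes. In grown-out cells it was 1.44-fold lower than in uninduced cells (1.35 to 1.53) and 1.75-fold higher than at 48 h (1.62 to 1.89). It stood above 82.8% of measured genes in the uninduced library, 49.3% at 48 h and 71.4% in grown-out cells.

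Akr1b3 (chromosome 6, 34253930 to 34267489, minus strand) had 8.50 RPKM (7.68 to 9.40), 6.80 (6.05 to 7.63) and 7.35 (6.51 to 8.28) from uninduced through 48 h to grown-out cells. These levels are scaled by a deposited length of 892 bp of its span of 13560 bp and rest on 387, 294 and 273 reads. They were therefore not ranked against the other genes. Akr1b3 was 1.25-fold lower at 48 h (1.07 to 1.46) and 1.16-fold lower in grown-out cells, where its interval included no change (0.988 to 1.36). Per Akr1b3 read there were 7.43 reads of Akr1b8 in uninduced cells, 3.70 at 48 h and 5.98 in grown-out cells. The ratio of these neighbouring genes was 2.01-fold lower at 48 h than in uninduced cells (1.69 to 2.38) and 1.24-fold lower in grown-out cells (1.05 to 1.47).

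Akr1b8 lies in a cluster of related reductase genes, and the next gene on its strand differed from it at 48 h. Akr1b10 had 0.853 RPKM in uninduced cells (0.784 to 0.928), 0.954 at 48 h (0.879 to 1.03) and 0.533 after growing out (0.473 to 0.599). It was 1.12-fold higher at 48 h, its interval including no change (0.994 to 1.26), and 1.60-fold lower in grown-out cells (1.38 to 1.85). The grown-out library was thus the low one for Akr1b10, whereas the 48 h library was the low one for Akr1b8. Reads of Akr1b8 per Akr1b10 read were 5.20, 1.85 and 5.79 from uninduced through 48 h to grown-out cells. That ratio was 2.81-fold lower at 48 h than in uninduced cells (2.45 to 3.22) and 3.13-fold higher in grown-out cells than at 48 h (2.65 to 3.68). Akr1b7, the last of the cluster, had 1 to 2 reads per library. Slc35b4, beyond Akr1b3, had 1.47, 1.07 and 1.35 RPKM, and Bpgm, past Akr1b7, 2.23, 1.44 and 1.15 RPKM. Slc35b4 was 1.37-fold lower at 48 h (1.26 to 1.48) and 1.08-fold lower in grown-out cells (1.01 to 1.17). Bpgm was 1.55-fold lower at 48 h (1.47 to 1.64) and 1.94-fold lower in grown-out cells (1.83 to 2.07). These reductase genes are similar in sequence, and how reads matching several of them were treated is not given in the sources used here.

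**Figure D2:**
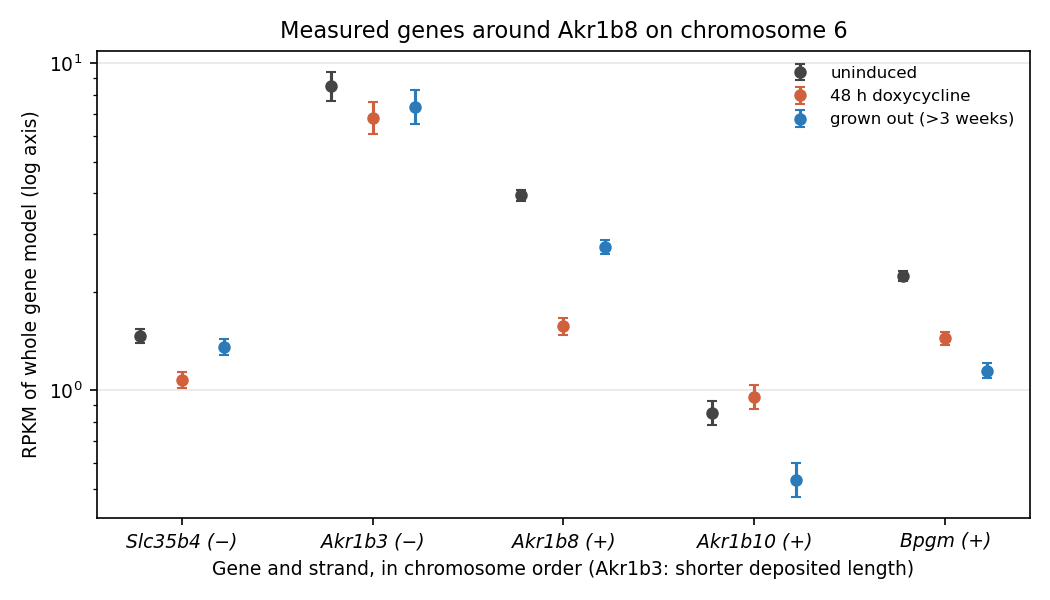
Level in RPKM (log axis) of 5 measured genes around Akr1b8 in chromosome order, in the 3 libraries; bars are 95% Poisson intervals. Akr1b8 was lowest at 48 h (1.57 RPKM), Akr1b10 in grown-out cells (0.533 RPKM).

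Gsta4 and Gstm1 encode glutathione S-transferases, which join glutathione to reactive compounds; the product of Gsta4 acts on the lipid aldehyde 4-hydroxynonenal. Gsta4 (chromosome 9, 78039773 to 78057156, plus strand) had 1.12 RPKM in uninduced cells (1.06 to 1.20), 0.633 at 48 h (0.581 to 0.689) and 0.815 after growing out (0.751 to 0.884). As for Akr1b8, the 3 intervals did not overlap and the grown-out value lay between the others. Gsta4 was 1.78-fold lower at 48 h (1.60 to 1.98), the largest difference after Akr1b8 among the measured genes of the group, and 1.38-fold lower in grown-out cells (1.24 to 1.53). Gstm1 (chromosome 3, 107815168 to 107820891, minus strand) was below the expression minimum at 0.247, 0.130 and 0.105 RPKM, on 72, 36 and 25 reads. It was 1.90-fold lower at 48 h (1.26 to 2.92) and 2.35-fold lower in grown-out cells (1.47 to 3.87), on a plain ratio that the pseudocount of the log2 scale reduces to -0.94. The value of Gstm1 is uncertain, since several near relatives of it lie side by side.

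Per length, the order of levels in uninduced cells was Nfe2l2, Gclm, Akr1b8, Gclc, Hmox1, Gsta4, Srxn1, Gstm1 and Nqo1, and only the intervals of Gstm1 and Nqo1 overlapped among neighbours. At 48 h Gclc stood above Akr1b8 and Srxn1 above Gsta4, with again only Gstm1 and Nqo1 overlapping. In grown-out cells the intervals of Gclc and Akr1b8, and of Gsta4 and Srxn1, overlapped. The 8 measured genes were each above 0.63 RPKM in every library, so none passed the minimum through 1 library alone.

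Counted together, 7 of the 8 measured genes were lower beyond counting error at 48 h, meaning an interval that excluded no change, and 0 were higher. Of all measured genes 30.0% were lower and 30.1% higher by that rule. A gene was past 2-fold where its log2 ratio of RPKM plus 0.05 also reached that size, which 1 of the 8, Akr1b8, did, against 0.720% of measured genes lower and 0.0253% higher. The median log2 ratio was -0.44, and 0.0029 over all measured genes. Against the same uninduced library, the grown-out library had 6 of 8 lower beyond counting error and 0 higher, where 29.5% of measured genes were lower and 33.6% higher. DESeq2 size factors moved that split over all measured genes from 2658 higher and 2331 lower to 3227 and 1848. Under those factors and under TMM scaling the 8 had 6 lower and 1 higher, Hmox1. Without such rescaling the median of the 8 was -0.36, and 0.0082 over all measured genes. None of the 8 was past 2-fold, against 0.708% of measured genes lower and 0.164% higher. As the genes were chosen with these contrasts known, nothing is read from the difference between these shares.

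**Figure D3:**
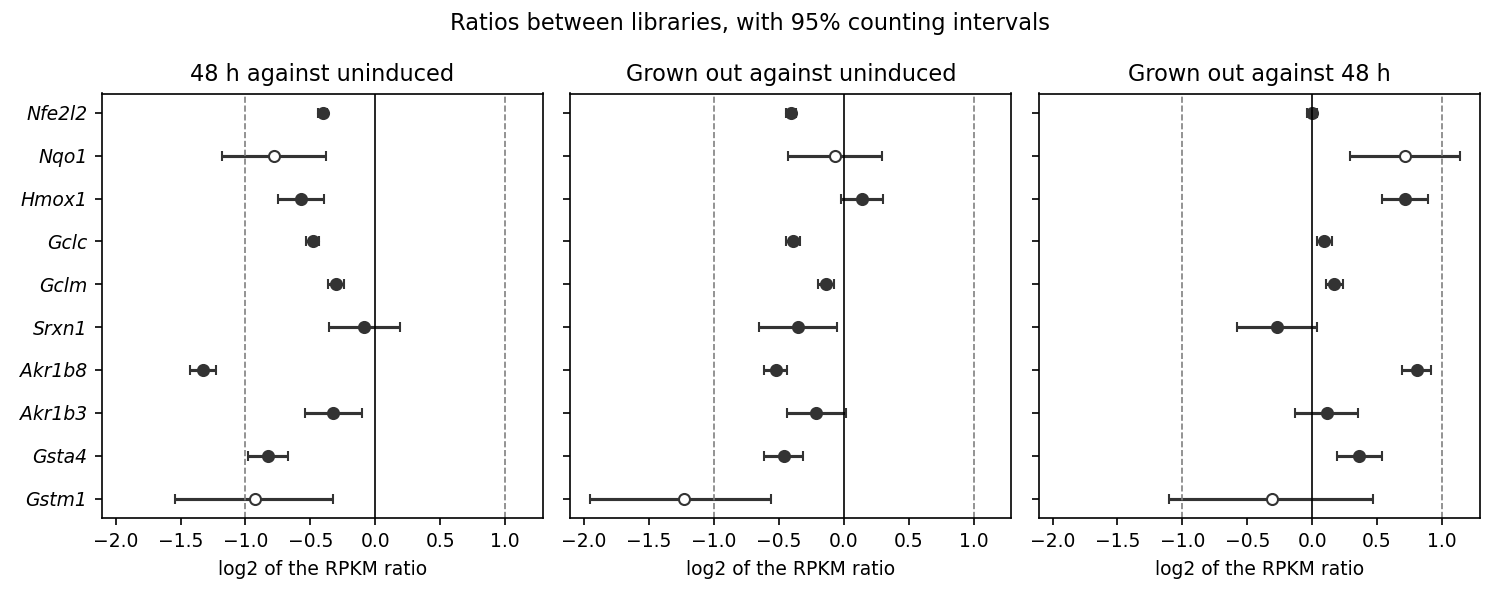
Log2 of the RPKM ratio of each gene in the 3 comparisons, with 95% counting intervals; open points mark Nqo1 and Gstm1, below the expression minimum, solid lines mark no change and dashed lines 2-fold. At 48 h the Srxn1 interval alone includes no change, and Akr1b8, at 2.51-fold lower, lies past the dashed line with its whole interval.

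Set against the 48 h library, the grown-out library had 5 of 8 genes higher beyond counting error and 0 lower, where 35.6% of measured genes were higher and 32.0% lower. Scaling by gene-model reads turned that split over all measured genes from 2818 higher and 2530 lower to 2558 and 2757, and DESeq2 size factors moved it to 3100 and 2212, with the same 5 and 0 among the 8. None was past 2-fold, by a rule that 0.708% of measured genes met as higher and 0.316% as lower. The 5 were Akr1b8 at 1.75-fold, Hmox1 at 1.64-fold, Gsta4 at 1.29-fold (1.14 to 1.45), Gclm at 1.13-fold (1.07 to 1.18) and Gclc at 1.07-fold (1.03 to 1.11). Nqo1, below the minimum, was 1.64-fold higher (1.23 to 2.20). Nfe2l2, Srxn1 and Akr1b3 had intervals that included no change. This comparison shares each of its libraries with one of the others and is not separate evidence.

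**Figure D4:**
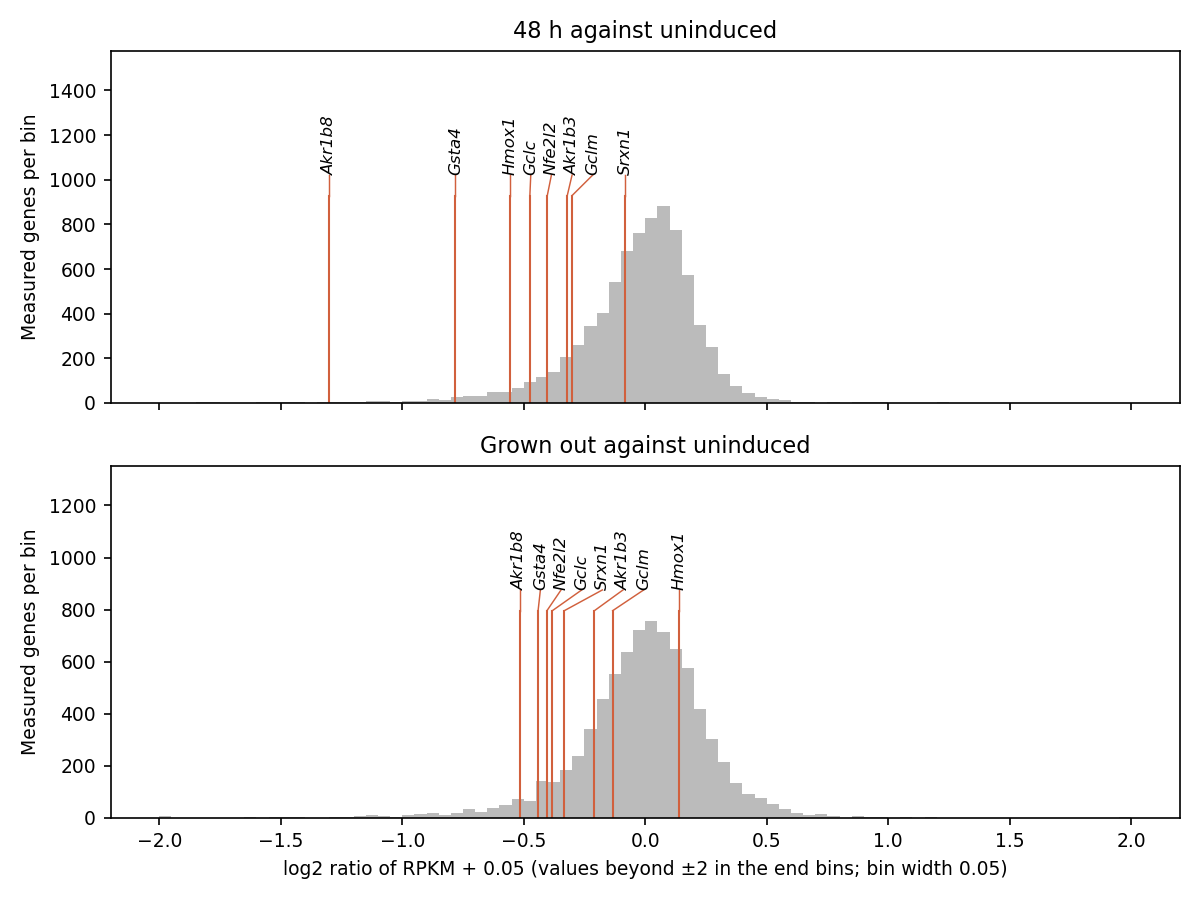
Histograms of the log2 ratio of RPKM plus 0.05 over the 7915 measured genes, for 48 h and for grown-out against uninduced cells, with the 8 measured genes of the group as vertical lines. At 48 h the lines run from -1.30 (Akr1b8) to -0.08 (Srxn1), and in grown-out cells from -0.52 (Akr1b8) to 0.14 (Hmox1).

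Read counts set over those of Nfe2l2 in the same library show which genes differed by more or less than Nfe2l2. Whether Nrf2 regulated them in these cells was not tested. At 48 h the ratio to Nfe2l2 was 1.90-fold lower for Akr1b8 (1.76 to 2.04), 1.34-fold lower for Gsta4 (1.20 to 1.496) and 1.05-fold lower for Gclc (1.01 to 1.10). It was higher for Gclm, at 1.07-fold (1.02 to 1.13), and for Srxn1, at 1.25-fold (1.03 to 1.51). For Hmox1 the ratio was 1.12-fold lower and for Akr1b3 1.06-fold higher, the intervals of both including no change (0.992 to 1.27 and 0.906 to 1.24). In grown-out cells the ratio was 1.46-fold higher than in uninduced cells for Hmox1 (1.30 to 1.64) and 1.21-fold higher for Gclm (1.15 to 1.27). Akr1b8 was then 1.09-fold lower relative to Nfe2l2 (1.02 to 1.16), and Gclc and Gsta4 had intervals that included no change (0.968 to 1.06 and 0.936 to 1.16).

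The wider pathway was described with 9 lists of related genes, of which 129 of 130 names were in the tables and 70 genes were measured. At 48 h 33 of the 70 were lower and 18 higher beyond counting error, 0 were past 2-fold, and the median log2 ratio was -0.08. Over all measured genes 30.0% were lower and 30.1% higher in that comparison, 0.720% were past 2-fold lower, and the median was 0.0029. In grown-out cells 21 of the 70 were lower and 26 higher, 1 was past 2-fold lower, and the median was 0.05. There 29.5% of all measured genes were lower and 33.6% higher, 0.708% were past 2-fold lower, and the median was 0.0082. The counts of each list below are beyond counting error and are read against these shares, and nothing is called particular to a list.

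Among partners and regulators of Nrf2, 6 of 11 measured genes were lower and 4 higher at 48 h, and 4 lower and 2 higher in grown-out cells. The small Maf gene Maff had 0.671, 0.416 and 0.430 RPKM from uninduced through 48 h to grown-out cells, being 1.61-fold lower at 48 h (1.36 to 1.90) and 1.56-fold lower in grown-out cells (1.31 to 1.86). Mafk and Mafg were 1.27-fold and 1.25-fold lower at 48 h, and both had intervals that included no change in grown-out cells. Keap1 and Bach1, which represses the same elements, were singled out after their values were seen. Keap1 had 1.25, 1.13 and 1.33 RPKM, with intervals of its ratios to the uninduced library that included no change. Bach1 had 1.19, 1.09 and 1.01 RPKM and was 1.09-fold lower at 48 h (1.02 to 1.16) and 1.17-fold lower in grown-out cells (1.10 to 1.25).

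Genes of glutathione supply and glutathione peroxidases had 5 of 11 lower and 2 higher at 48 h, and 2 lower and 5 higher in grown-out cells. Slc7a11, which encodes the cystine importer subunit that feeds glutathione synthesis, had 0.681, 0.425 and 0.492 RPKM, so it was 1.60-fold lower at 48 h (1.51 to 1.70) and 1.38-fold lower in grown-out cells (1.30 to 1.47). Cth, whose enzyme makes cysteine from cystathionine, went the other way, with 0.421, 0.875 and 0.497 RPKM and a 2.08-fold higher level at 48 h (1.89 to 2.29), or 0.98 on the log2 scale with the pseudocount, short of the 2-fold rule. Chac1, whose enzyme degrades glutathione, was 1.32-fold lower at 48 h (1.14 to 1.54).

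Of the other glutathione transferase genes only 5 of 22 were measured, and 4 were lower and 0 higher at 48 h, with a median log2 ratio of -0.46. The microsomal family gene Mgst3 had 0.922, 0.445 and 1.09 RPKM. It was 2.07-fold lower at 48 h (1.86 to 2.32), likewise short of the rule at a log2 ratio of -0.97, and 1.18-fold higher in grown-out cells (1.08 to 1.29). Mgst2 and Gsto1 were 1.43-fold and 1.38-fold lower at 48 h. In grown-out cells 1 of the 5 was lower and 2 higher. The 3 other measured aldo-keto reductase genes were Akr1b10, Akr1c13 and Akr1a1. Akr1c13 was 1.38-fold lower at 48 h (1.20 to 1.58) and 1.39-fold lower in grown-out cells (1.20 to 1.60), while Akr1a1 was 1.06-fold higher at 48 h (1.01 to 1.11) and had 4.49 RPKM in grown-out cells against 4.52 uninduced.

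In the thioredoxin and peroxiredoxin list 5 of 12 were lower and 3 higher at 48 h, and 6 lower and 4 higher in grown-out cells. Sesn3, a sestrin gene, was the 1 gene past 2-fold, with 1.90, 1.29 and 0.701 RPKM and a 2.71-fold lower level in grown-out cells (2.56 to 2.88). Prdx4 was 1.32-fold lower and Prdx3, which encodes the mitochondrial peroxiredoxin, 1.33-fold higher in grown-out cells. Genes of NADPH supply, which Nrf2-linked reductases need, had 7 of 11 lower and 3 higher at 48 h, and 3 lower and 5 higher in grown-out cells. Idh1 was 1.51-fold lower at 48 h (1.42 to 1.61), whereas Mthfd1 and Taldo1 were 1.399-fold and 1.34-fold higher in grown-out cells.

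Among other detoxification genes 3 of 6 were lower and 2 higher at 48 h, and 1 lower and 3 higher in grown-out cells. Osgin1, an oxidative stress growth inhibitor gene, had 9.72, 5.07 and 5.998 RPKM, with the uninduced library high. It was 1.92-fold lower at 48 h (1.82 to 2.02) and 1.62-fold lower in grown-out cells (1.54 to 1.71). The transporter genes Abcc1 and Abcc5 were 1.29-fold and 1.11-fold higher in grown-out cells. At 48 h Abcc5 was 1.24-fold lower (1.20 to 1.29), and the interval of Abcc1 included no change (0.989 to 1.05). In the haem and iron list 2 of 8 were lower and 3 higher at 48 h, and 1 lower and 3 higher in grown-out cells. Fth1, the ferritin heavy chain gene, had 30.7, 21.8 and 31.8 RPKM, being 1.41-fold lower at 48 h (1.34 to 1.48). Its interval in grown-out cells included no change. That of Hmox1 did so too, but not under TMM scaling or DESeq2 size factors. The Fth1 interval is not given under those scalings. Hmox2, the constitutive haem oxygenase gene, was 1.13-fold higher at 48 h (1.05 to 1.21) and 1.25-fold higher in grown-out cells (1.17 to 1.34). Tfrc, the transferrin receptor gene, was 1.11-fold lower at 48 h and 1.39-fold higher in grown-out cells. Sod1, Sod2 and Cat, the measured genes for superoxide dismutases and catalase, had intervals that included no change at 48 h, and in grown-out cells Sod2 was 1.396-fold higher (1.28 to 1.53), Sod1 1.14-fold higher (1.06 to 1.23) and Cat 1.14-fold lower (1.05 to 1.24).

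**Figure D5:**
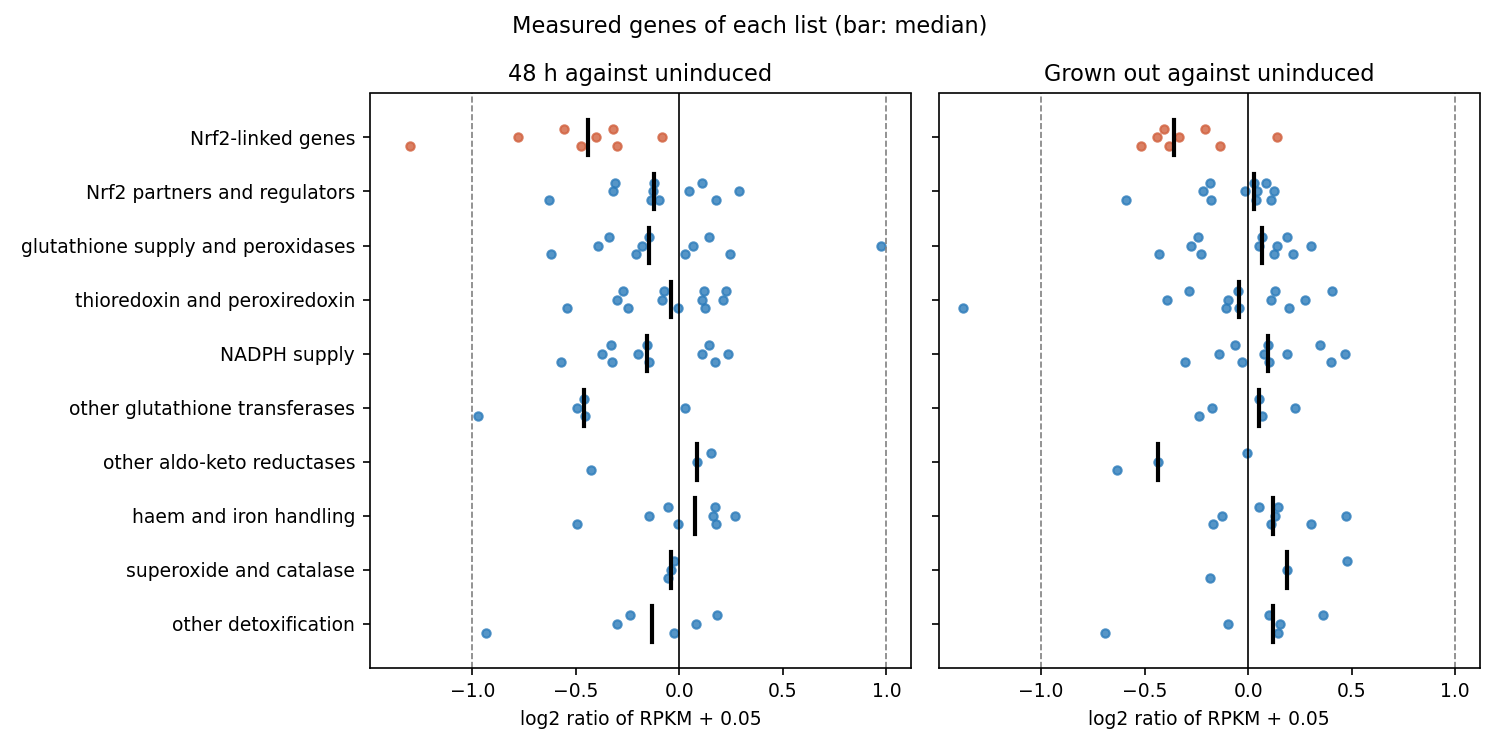
Log2 ratio of RPKM plus 0.05 against the uninduced library for the measured genes of the group and of each list, at 48 h and in grown-out cells; points are genes, black bars medians, dashed lines 2-fold. The medians of the Nrf2-linked genes were -0.44 and -0.36, and those of the other glutathione transferases -0.46 and 0.05.

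The nearest measured genes on each side were also described, at 6111 bp (Hnrnpa3) to 251780 bp (Csf1) from their gene of the group. No other model overlapped any of the 10 genes. Of 18 distinct neighbours outside the group, 6 were lower and 7 higher beyond counting error at 48 h, with a median log2 ratio of 0.017 and a range from -0.43 (Slc35b4) to 0.41 (E330016A19Rik). In grown-out cells 9 were lower and 8 higher. Of all measured genes 30.0% were lower and 30.1% higher at 48 h, and 29.5% and 33.6% in grown-out cells. Hnrnpa3, next to Nfe2l2, was 1.15-fold lower at 48 h, and Dnttip2, next to Gclm, was 1.29-fold higher.

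The genes whose values resembled those of Akr1b8 most were sought by the Euclidean distance over its log2 ratios for 48 h and grown-out against uninduced cells, which rest on the 3 libraries. The nearest was Zfp703, a zinc finger gene, at a distance of 0.042, with 2.34, 0.946 and 1.61 RPKM. The next were 4930461G14Rik at 0.19, Ranbp3l at 0.19, Zfp36l2 at 0.20 and Arl14 at 0.24. Their 48 h ratios lay between -1.26 and -1.08, and each had a grown-out value between its 48 h and uninduced values. Choosing genes by these same ratios brings such likeness, so it is not a separate finding.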

How the data were processed

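Estimated counts per gene model, introns included, were deposited by the authors and are partly fractional: 47.3% to 48.5% of counts above 0 lay within 0.01 of a whole read. RPKM, the unit of the levels, was computed by the authors, per the file headers, from model length and a library total. Tools named, per the submitters' processing notes, were bedtools 2.16.2, TopHat 1.4.1, Bowtie 0.12.8 and CASAVA 1.8.2, with build hg19, although the models are mouse; 0 of the 10 genes lie within 10 bp of their GRCm38 start or end. Coordinates were written 1-based. Models with a repeated symbol or a span over 3 Mb were left out. Log2 ratios used a pseudocount of 0.05 RPKM. Counts were rounded for intervals (scipy 1.17.1) and for the scaling alternatives (edgeR 4.0.16, DESeq2 1.42.0). The calculations were run on simulated Poisson counts, which hold no variation between cultures and no repeat reads. That run therefore checks the arithmetic and not the size of those sources of error. With 1 library per condition no p-value was computed. The 10 genes and the lists were chosen with earlier results of these data known. Named genes were the 10, in each list up to 3 measured genes with the largest log2 ratio against uninduced cells and any past 2-fold, neighbours of genes past 2-fold, and the 5 genes nearest to Akr1b8; Keap1, Bach1, Akr1b7, Bpgm and neighbours of other genes were named outside this rule, after their values were seen.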

Additional observations from a re-analysis of the deposited data

Results flagged for a closer look

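Among the genes named, those of the wider lists whose doxycycline libraries lay on opposite sides of the uninduced library, each beyond counting error, were singled out. From 48 h to grown-out cells the log2 ratio was 1.20 for Mgst3, 0.62 for Tfrc and 0.45 for Abcc5. With 1 library per condition the difference was not tested, and both ratios share the uninduced library.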

How the results depend on the processing

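TMM, DESeq2 and gene-model scaling, a pseudocount of 0.5, a mean of at least 2 RPKM, no minimum, a length of at least 3000 bp and a 1.5-fold threshold were tried. No ratio of the 8 measured genes that was beyond counting error reversed, but 6 values moved outside the counting interval of the main setting. With a pseudocount of 0.5 the 48 h log2 ratio went from -1.30 to -1.10 for Akr1b8 and from -0.78 to -0.52 for Gsta4. Under DESeq2 size factors that of Nfe2l2 in grown-out against uninduced cells went from -0.40 to -0.36. At 1.5-fold, 2 genes were past the threshold at 48 h (Akr1b8 and Gsta4), and 2 from 48 h to grown-out cells (Akr1b8 and Hmox1). With a mean of at least 2 RPKM, 5 genes remained measured and 3 of them were beyond counting error from 48 h to grown-out cells, against 5 of 8; fewer genes were counted. The counts over all genes that follow are out of 7915 genes, but 3272 at 2 RPKM, 21775 with no minimum and 7265 at 3000 bp. Over all genes, those lower past 2-fold at 48 h numbered 57, and 22 with a pseudocount of 0.5, 24 at 2 RPKM, 125 with no minimum, 33 at 3000 bp and 259 at 1.5-fold. For grown-out against uninduced cells the 56 became 19, 14, 226, 40 and 232 in the same order. For grown-out against 48 h cells the 56 higher became 20, 20, 103, 34 and 284. As shares, the 48 h counts were 0.720% in the main setting, 0.733% at 2 RPKM, 0.574% with no minimum and 0.454% at 3000 bp. Those for grown-out against uninduced cells were 0.708%, 0.428%, 1.04% and 0.551%. Those for grown-out against 48 h cells were 0.708%, 0.611%, 0.473% and 0.468%. Genes lower beyond counting error at 48 h were 2372 (30.0%), and 1046 (32.0%) at 2 RPKM and 3580 (16.4%) with no minimum. For grown-out against uninduced cells the 2331 (29.5%) became 977 (29.9%) and 4174 (19.2%). Leaving out a library was not possible with 1 per condition. No paired analysis was possible because each condition had 1 library. Depth limits Nqo1, Gstm1 and Srxn1, whose intervals are wide.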
